A study of Mus musculus with 6 samples.

Results

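The EGR and NR4A families are transcription factors whose genes are switched on within the first hour of T cell receptor signalling. EGR proteins are zinc finger factors induced through the MAP kinase pathway and serum response factor. Egr2 and Egr3 are known for restraining activated T cells and for the anergic state, and Egr1 for early activation. NR4A proteins are orphan nuclear receptors that act without a known ligand. Nr4a1 (Nur77) is widely used as a readout of receptor signal strength, and the 3 NR4A factors are known for restraining T cell responses and for their part in exhausted and regulatory T cells. The members described here are Egr1, Egr2, Egr3, Nr4a1, Nr4a2 and Nr4a3. They were found as every probe set that the array annotation maps to exactly 1 of these symbols, which gave 15 of 45101 probe sets, 5 for EGR genes and 10 for NR4A genes. They are 6 of the 18193 genes that the array names.

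Affymetrix arrays were made from 5C.C7 T cells. Their transgenic T cell receptor recognises a moth cytochrome c (MCC) peptide. All donors were 5C.C7 RAG2-/- CD45.1, and were either wild type for CTLA-4 or CTLA-4-/-, the loss of an inhibitory receptor that competes with CD28 for CD80 and CD86. Cells of both genotypes went into B10.A mice, were activated there with MCC peptide and LPS, and were sorted after 4 days. Each genotype had 3 arrays, called biological replicates in the titles, and whether each came from its own animal, or from pooled animals, is not stated. P-values therefore measure only the spread between these arrays, part of which may be technical. The donor genotype, not the host, differed between groups, and the design text asks how expression in the transferred cells differs between genotypes at that time.

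Ctla4 had 4902 ± 385 in wild-type arrays and 795 ± 14.4 in CTLA-4 KO (intensity, mean ± SD, n = 3 arrays), the direction the labels give. Whether its 1 probe set lies in the deleted part is not known here. All 9 T cell markers on the array were above the dimness floor of 37.8. Their summed intensity spanned 61384 to 67218 in wild-type arrays and 61683 to 62264 in CTLA-4 KO. Of 9 B cell markers 4 were above the floor, with sums of 448 to 788 in wild-type arrays and 874 to 1423 in CTLA-4 KO. Without Cd22 these were 270.3 to 528 and 179 to 373. Cd79b, Ms4a1 and Blk, also above the floor, had means of 109.8, 64.3 and 55.8 in wild-type arrays. In CTLA-4 KO their means were 91.5, 53.3 and 57.9. Cd79a, Pax5, Fcer2a, Cr2 and Ebf1 were under the floor by their mean over all arrays, though Pax5 had 48.7, 44.5 and 46.6 in wild-type arrays. Of 10 myeloid markers 6 were above it, with sums of 485 to 499 and 359 to 551. The arrays of replicate 2 came from donors that appear female, by Xist, in both genotypes. The 5' to 3' ratio of Actb, a sign of RNA integrity, came to 0.418, 0.410 and 0.584 in wild-type arrays and 0.567, 0.691 and 0.544 in CTLA-4 KO. Each array gives RNA of a bulk population, so more cells that express a gene cannot be told apart from more RNA in each cell.

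Of the 15 probe sets, 12 reached the floor and were tested. The remaining 3, 1 of Nr4a2 and 2 of Nr4a3, are given by their values, and for Nr4a3 also by a fit with no filter. None of the 12 passed an adjusted p of 0.05 in limma, against 1.28% of all 27022 tested probe sets. At an unadjusted p under 0.05 there were 3 of the 12, against 15.6% of all. With a block for replicate number, so that genotypes are compared within pairs, 1 of the 12 passed, the Nr4a1 probe set, against 8.65% of all. The genotypes did not overlap at 3 of the 12, against 21% of all. The median log2 difference, CTLA-4 KO minus wild type, was −0.016 over the 12 and −0.041 over all tested probe sets. The members were chosen with earlier results of these data known, and these counts are read only against the shares given with them.

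**Figure D1:**
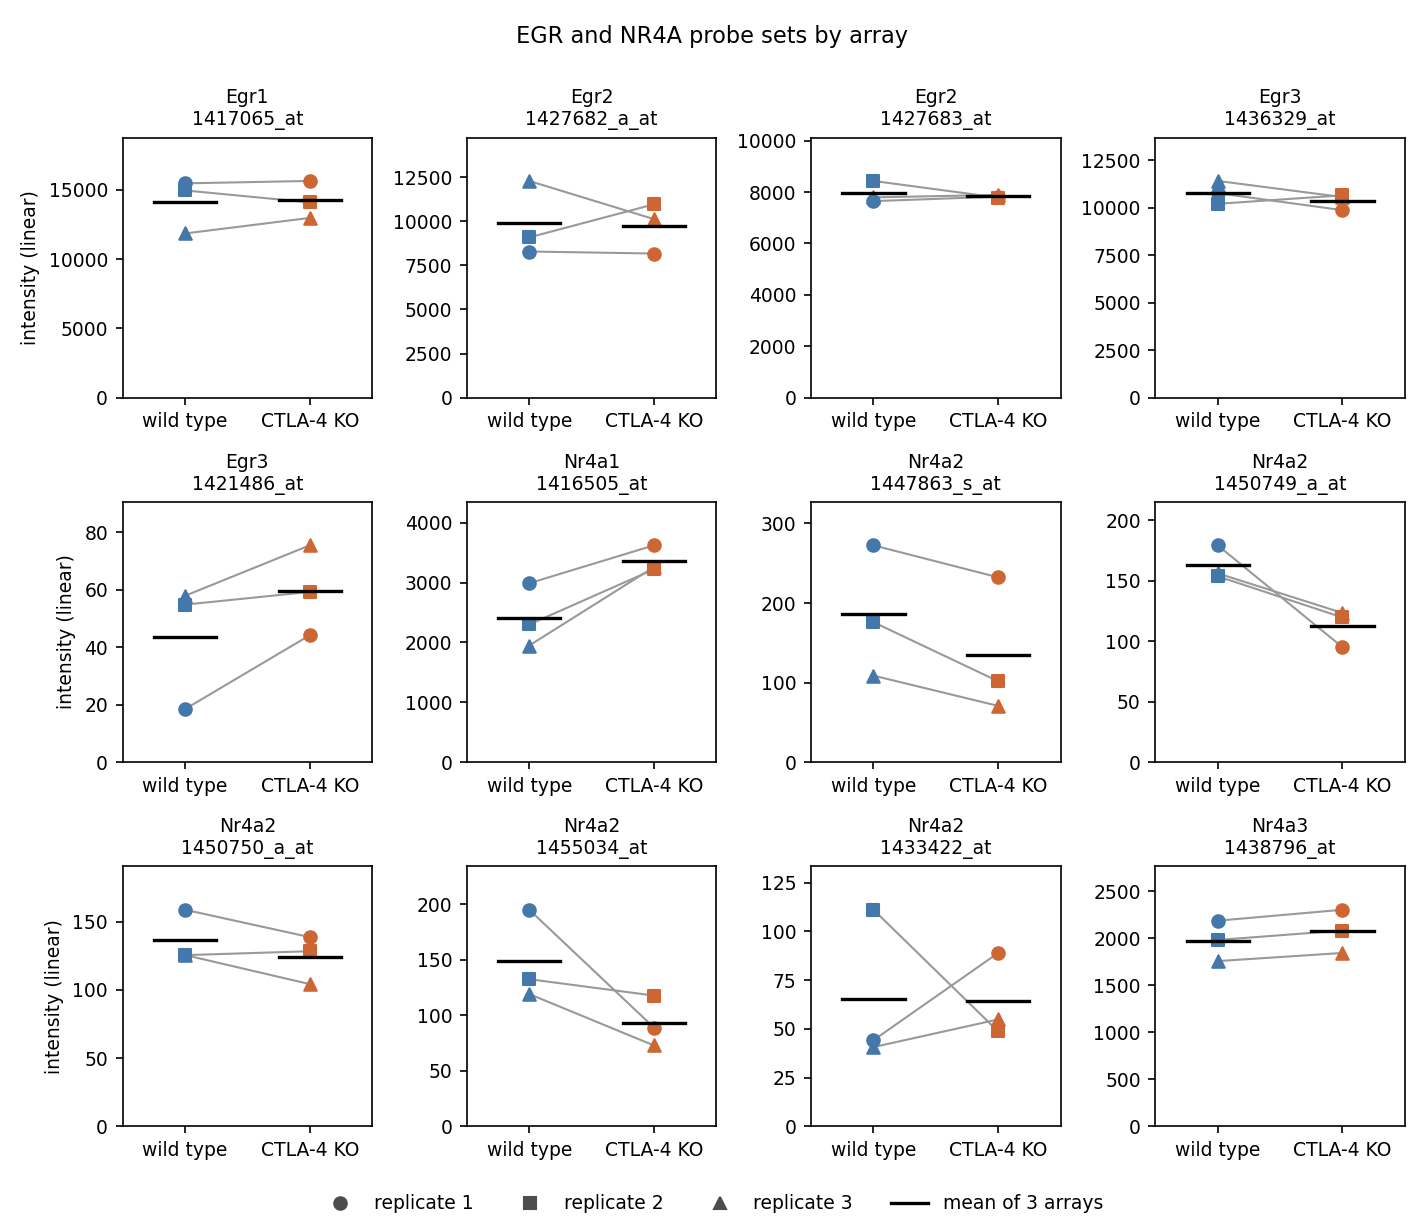
Linear intensity (y axis, from 0, a different scale in each panel) of the 12 tested EGR and NR4A probe sets in wild-type arrays and CTLA-4 KO arrays; marker shapes are replicate numbers, grey lines join the arrays of a pair and black bars are means of 3 arrays. Egr1, Egr2 and the bright Egr3 probe set lie at similar levels in both genotypes, Nr4a1 is higher in all 3 CTLA-4 KO arrays, and at 2 Nr4a2 probe sets every CTLA-4 KO array lies below every wild-type array.

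The EGR genes were among the brightest signals of these cells in both genotypes, and the CTLA-4 KO means of their bright probe sets were 96.0% to 101.0% of the wild-type means. Egr1 had intensities of 15468, 14958 and 11852 in wild-type arrays and 15642, 14094 and 12973 in CTLA-4 KO. The genotypes overlapped throughout, and replicate 3 was the dimmest array of each. The log2 difference of Egr1 was 0.020 ± 0.11 (SE, limma adjusted p = 0.952). Its 95% interval ran from a fold of 0.851 to one of 1.21.

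Egr2, which represses interleukin-2 production and supports the expression of anergy genes, was read by 2 probe sets that both overlapped between genotypes. The first, 1427682_a_at, had 8288, 9089 and 12290 in wild-type arrays and 8173, 10963 and 10125 in CTLA-4 KO. Its difference changed sign between pairs, at −0.020, 0.27 and −0.28 on the log2 scale in replicates 1, 2 and 3. The second, 1427683_at, was steadier, with 7647, 8433 and 7794 in wild-type arrays and 7823, 7784 and 7890 in CTLA-4 KO. That array-to-array spread of the first probe set was not seen in the second, although the annotation gives them the same gene. The log2 differences were −0.0098 ± 0.15 and −0.022 ± 0.083 (SE, limma adjusted p = 0.984 and 0.929). The 95% interval of the steadier probe set spanned folds of 0.868 to 1.12, and that of the other 0.787 to 1.25.

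Egr3, which acts alongside Egr2, had 10763, 10202 and 11405 in wild-type arrays and 9868, 10648 and 10558 in CTLA-4 KO at the bright probe set 1436329_at. The groups overlapped, with a log2 difference of −0.058 ± 0.083 (SE; limma adjusted p = 0.783, 95% interval of the fold 0.845 to 1.09). A dim probe set of the same gene, 1421486_at, had 18.5, 54.9 and 57.9 in wild-type arrays and 44.2, 59.3 and 75.5 in CTLA-4 KO. It was higher in CTLA-4 KO in every pair, as were 18.6% of all tested probe sets. Its values straddle the floor, and its interval, folds of 0.775 to 2.25, covers that of the bright one. The share of non-control probe sets dimmer than Egr1, both Egr2 probe sets and the bright Egr3 probe set was 98.1% at its lowest in any array. With the Actb 5' to 3' ratio of each array as a term, the log2 differences were 0.18 ± 0.14 for Egr1, −0.32 ± 0.14 for the first Egr2 probe set and −0.13 ± 0.10 for the bright Egr3 probe set (SE, limma adjusted p = 0.705, 0.513 and 0.713), farther from 0 than without it.

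**Figure D2:**
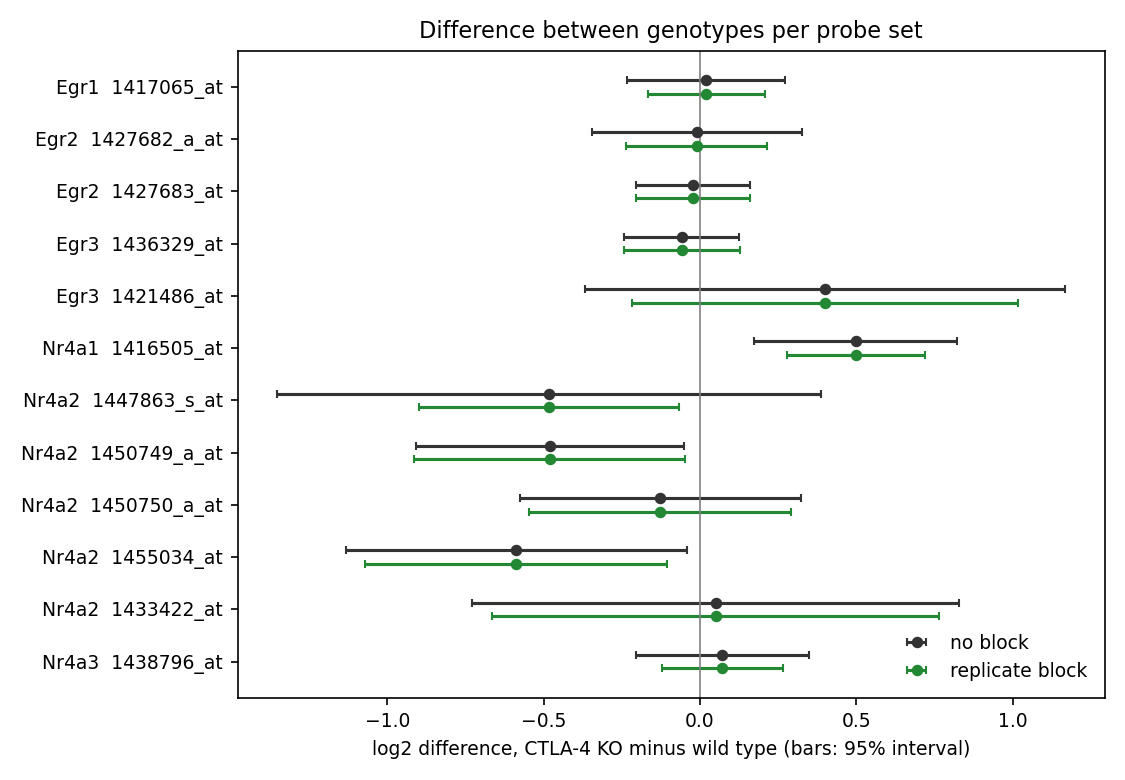
Log2 difference (x axis, CTLA-4 KO minus wild type, on log2(intensity + 16)) of each tested probe set (y axis) with its 95% interval from limma, without (dark) and with (green) the replicate block. The bright EGR probe sets sit close to 0 with narrow intervals, the Nr4a1 intervals lie above 0, and the Nr4a2 probe sets spread from −0.59 to 0.050.

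Among the NR4A genes, Nr4a1 had higher values in all 3 CTLA-4 KO arrays and the lowest p of the 12 probe sets. Its 1 probe set had 2988, 2299 and 1947 in wild-type arrays and 3621, 3221 and 3257 in CTLA-4 KO. Every CTLA-4 KO array lay above every wild-type array, as at 9.46% of all tested probe sets, and the lowest CTLA-4 KO value exceeded the highest wild-type value, that of replicate 1. The means were 2411 ± 529 and 3366 ± 221 (SD, n = 3 arrays), a ratio of 1.40. The log2 difference came to 0.50 ± 0.15 (SE, limma adjusted p = 0.131), so it did not pass without a block. With the replicate block its SE was 0.10 and the limma adjusted p 0.0108. The pairs gave 0.28, 0.48 and 0.74.

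The call of Nr4a1 with the block was also made without replicate 1 or 2 of both genotypes (adjusted p = 2.65e-04 and 0.0282 in limma), and was lost without replicate 3 (0.38 ± 0.12, adjusted p = 0.0576). The SE was 0.13, 0.12 and 0.12 in these fits, larger than the 0.10 with all pairs. With so few arrays left, limma leans mostly on the variance of all probe sets. A smaller adjusted p there is therefore not stronger evidence. In the fit without a block, leaving out wild type replicate 1 gave 0.66 and adjusted p = 0.0418 in limma. With the Actb 5' to 3' ratio of each array as a term, the difference was 0.72 ± 0.18 (SE, limma adjusted p = 0.248).

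Nr4a3, the gene for NOR-1, had 2188, 1983 and 1759 in wild-type arrays and 2305, 2084 and 1845 in CTLA-4 KO at probe set 1438796_at. Each CTLA-4 KO array was slightly brighter than the wild-type array of its pair, by 0.074, 0.071 and 0.069 on the log2 scale, yet the groups overlapped because the pairs differed more than the genotypes. The log2 difference was 0.071 ± 0.12 without a block and 0.071 ± 0.089 with it (SE, limma adjusted p = 0.829 and 0.681). The 95% interval of the fold was 0.867 to 1.27 without the block. The other Nr4a3 probe sets lay under the floor by their means over all arrays. Probe set 1421080_at had 69.5, 59.6 and 21.8 in wild-type arrays and 11.8, 20.9 and 39.3 in CTLA-4 KO, and 1421079_at had 24.5, 25.2 and 26.4 and then 12.7, 1.34 and 27.1. In the fit with no filter their log2 differences were −0.70 ± 0.40 and −0.57 ± 0.33 (SE, limma adjusted p = 0.559 and 0.566). Their sign was opposite to that of 1438796_at.

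Nr4a2, the gene for Nurr1, was read by 6 probe sets, all of them dim. The brightest, 1447863_s_at, had 272, 176 and 109 in wild-type arrays and 232, 102 and 70.6 in CTLA-4 KO. Its groups overlapped, and the pairs lay far apart. Probe set 1450749_a_at had 179, 154 and 156 against 95.1, 119.7 and 123, and 1455034_at had 195, 132 and 119 against 88.9, 118 and 72.8. At both of these every CTLA-4 KO array lay below every wild-type array, as at 11.5% of all tested probe sets. All 3 were lower in every pair, as were 25.9% of all.

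The log2 differences of these 3 Nr4a2 probe sets were −0.48 ± 0.39, −0.48 ± 0.19 and −0.59 ± 0.25 (SE). Limma adjusted p was 0.602, 0.264 and 0.283, and 0.146, 0.166 and 0.128 with the replicate block, so none passed. Probe set 1450750_a_at had −0.13 ± 0.20, and 1433422_at, with 44.2, 111 and 40.7 against 89.0, 48.7 and 54.9, had 0.050 ± 0.35. The last, 1433423_at, stayed under the floor, between 3.69 and 35.3 in all arrays. The Nr4a2 probe sets thus disagreed in direction. The brightest one had a difference of −0.022 once the Actb ratio entered as a term, −0.18 without wild type replicate 1, −0.16 without CTLA-4 KO replicate 3, and −0.92 without CTLA-4 KO replicate 1.

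The promoter letters of the NR4A genes and of Egr2 are shown because these are the members with windows in the RefSeq promoter table of GRCm38.p6, with 250 bases before and 50 after each start. The NR4A genes had 1 window each and Egr2 had 5, while Egr1 and Egr3 were not matched. Each stretch is 5′ to 3′ on the gene's strand and lies before the start. Capitals mark TGACG on either strand (CGTCA on the printed one), the core of the cAMP response element, and in Egr2 also the CArG box, the binding motif of serum response factor.
Nr4a1, chr15:101266603-101266820, plus strand: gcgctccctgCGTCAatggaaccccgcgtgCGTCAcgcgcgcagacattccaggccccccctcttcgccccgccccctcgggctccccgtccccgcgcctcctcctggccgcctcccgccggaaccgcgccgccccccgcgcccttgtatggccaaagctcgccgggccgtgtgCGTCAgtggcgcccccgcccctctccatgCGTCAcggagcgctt
Nr4a2, chr2:57124100-57124213, minus strand: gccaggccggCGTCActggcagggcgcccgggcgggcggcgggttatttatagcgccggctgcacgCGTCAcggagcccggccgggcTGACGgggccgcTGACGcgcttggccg
Nr4a3, chr4:48045064-48045172, plus strand: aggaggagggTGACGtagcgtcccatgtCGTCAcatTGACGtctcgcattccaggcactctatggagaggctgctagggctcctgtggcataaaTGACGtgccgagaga
Egr2, chr10:67537748-67537828, plus strand: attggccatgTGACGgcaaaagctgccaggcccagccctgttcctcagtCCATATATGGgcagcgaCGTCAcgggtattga

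Each of the 3 NR4A windows held 4 copies of TGACG on either strand. At least 1 copy was present in 20.8% of the 32851 windows of this length, and at least 4 copies in 76 of them, or 0.231%. The Egr2 window shown, 1 of its 5, held 2 copies of TGACG around 1 CArG box, a motif present in 1.63% of all windows. Not every Egr2 window held both motifs, so that share does not measure how unusual Egr2 is. Neither GCGTGGGCG, the letters EGR proteins bind, nor AAAGGTCA, those NR4A proteins bind, was in these members' windows, and 0.612% and 1.51% of all windows held them. A match describes letters in a window and shows no binding. The log2 differences of the brightest NR4A probe sets were 0.50 ± 0.15 for Nr4a1, −0.48 ± 0.39 for Nr4a2 and 0.071 ± 0.12 for Nr4a3 (SE). None of them passed without the block, and a link of these letters to expression was not tested.

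Arrays with the same replicate number deviated together at several members. At Nr4a3 the wild-type arrays deviated from their mean by 0.15, 0.010 and −0.16 on the log2 scale in replicates 1, 2 and 3, and the CTLA-4 KO arrays by 0.15, 0.0099 and −0.16. At the brightest Nr4a2 probe set the deviations were 0.60, 0.011 and −0.61 in wild-type arrays and 0.87, −0.21 and −0.65 in CTLA-4 KO. Egr1, Nr4a3 and this Nr4a2 probe set, 3 of the 12, had replicate 1 highest and replicate 3 lowest in both genotypes, as did 4.87% of all tested probe sets. Egr2 at 1427682_a_at had its lowest array in replicate 1 of both genotypes. The 5' to 3' ratio of Gapdh came to 0.103, 0.0955 and 0.250 in wild-type arrays and 0.109, 0.205 and 0.178 in CTLA-4 KO, and its part in these shared deviations was not tested.

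**Figure D3:**
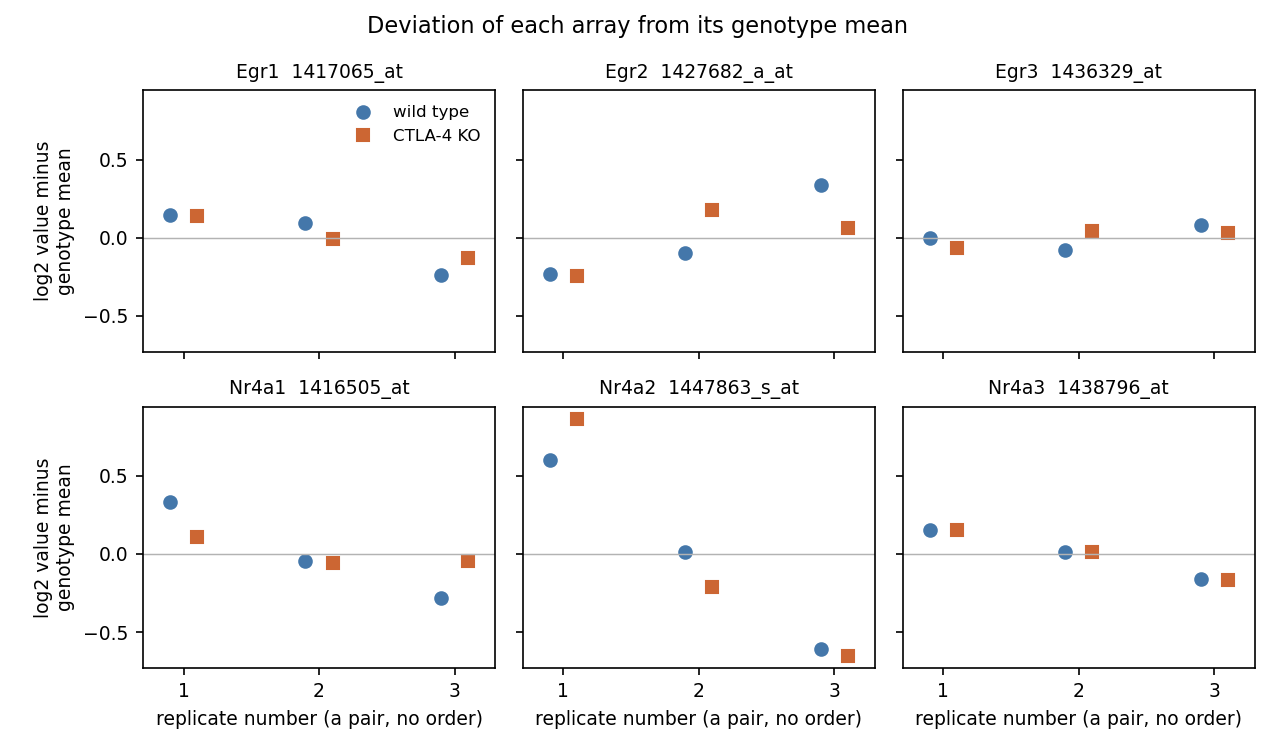
Deviation of each array's log2(intensity + 16) from the mean of its genotype (y axis) by replicate number (x axis, pairs without an order) for the brightest probe set of each member; circles are wild type and squares CTLA-4 KO. The Nr4a3 deviations of the genotypes coincide in each pair, and those of Nr4a2 span the widest range, from −0.65 to 0.87.

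The genes most like each member were taken by Pearson's r of log2 values over the 6 arrays, as a description of 6 points that share their pairs. Symbols such as those of clones, predicted genes and microRNAs were passed over. For Nr4a3 they were Abt1, with r = 0.994, and Irf4, with r = 0.987. Irf4, a transcription factor whose level follows receptor signal strength, had 5023, 4235 and 3414 in wild-type arrays and 5208, 4606 and 3926 in CTLA-4 KO. Like Nr4a3, it was a little higher in CTLA-4 KO within each pair and overlapped between groups (log2 difference 0.12, limma adjusted p = 0.737). For Nr4a1 the nearest were Eif2a (0.998) and Commd5 (0.989), for Nr4a2 Rab26os (0.991) and Tes3-ps (0.989), for Egr1 Ralgapb (0.988) and Psmd5 (0.986), for Egr2 Mms22l (0.995) and Wap (0.993), and for Egr3 Ubtd2 (0.989) and Itfg1 (0.985). With 11988 genes and 6 arrays such values are common: from 27 to 67 genes per member, among those not passed over, had r over 0.95.

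Of the cofactors that bind EGR proteins, neither Nab1 nor Nab2 passed without or with the block. Nab1, a corepressor of EGR factors, had 4226, 4500 and 5756 in wild-type arrays and 5132, 5913 and 5557 in CTLA-4 KO (log2 difference 0.21 ± 0.12, SE, limma adjusted p = 0.463). The other 2 tested Nab1 probe sets had log2 differences of 0.021 and 0.22. Nab2, a corepressor that EGR factors themselves induce, had 1388, 1318 and 1113 against 1209, 1178 and 1328 (−0.035 ± 0.12, limma adjusted p = 0.922). Values of both overlapped. Egr4, the remaining family member, was near the floor, at 12.2, 23.7 and 72.7 against 30.8, 43.4 and 112 (0.61 ± 0.48, limma adjusted p = 0.588).

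Of 19 tested partners and upstream regulators, such as serum response factor, ELK, MEF2 and NFAT genes, none passed without the block, against 1.74% of all tested genes. With it 1 passed, Cabin1, an inhibitor of calcineurin and MEF2, against 8.91% of genes. Cabin1 had 496 ± 48.8 in wild-type arrays and 669 ± 61.7 in CTLA-4 KO (SD, n = 3, limma adjusted p = 0.188, and 0.0404 with the block), while its other 2 probe sets had log2 differences of 0.011 and 0.027. Without the block 2 of the 19 had an unadjusted p under 0.05, against 16.5% of all tested genes. The list median was −0.035, against 0.0021 over all genes.

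Other genes of the early receptor response changed in both directions in the fit with the block. Of 27 tested, 3 rose and none fell in limma without the block, against 1.23% and 0.517% of all genes. With it 5 rose and 3 fell, against 5.46% and 3.45%. At an unadjusted p under 0.05 without the block there were 9, 4 of them lower, against 16.5% of all genes in both directions. Fos, a subunit of AP-1, rose from 739, 576 and 574 in wild type to 1175, 1094 and 1082 in CTLA-4 KO (0.82 ± 0.14, SE, limma adjusted p = 0.0212). Nfkbid, a nuclear IκB protein, rose from 5790 ± 417 to 8069 ± 233 and the repressor gene Klf10 from 442 ± 27.3 to 697 ± 50.0 (SD, n = 3, limma adjusted p = 0.0337 and 0.0493). Zfp36 and Myc were also higher with the block. Dusp6, a MAP kinase phosphatase gene, had 1142 ± 129 and 713 ± 101, and Spry1, a Sprouty family gene, had 1229 ± 185 and 733 ± 122 (SD, n = 3). Both passed with the block (limma adjusted p = 0.00287 and 0.0014) and not without it (0.0556 and 0.0567), and Fosl2 was the third that fell with it. The other MAP kinase phosphatase genes tested, Dusp1, Dusp2, Dusp4 and Dusp5, did not pass in either fit. Their log2 differences were −0.23, −0.12, −0.42 and 0.49, so only Dusp5 differed in sign from Dusp6. The list median was 0.059. The count of 3 was 0 without wild type replicate 2 or 3 or any CTLA-4 KO replicate, and 1 without wild type replicate 1.

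Genes reported elsewhere as EGR targets in T cells were taken as a list, with no claim that EGR proteins drive them here. Of 26 tested, 1 rose and none fell in limma without the block, against 1.23% and 0.517% of all tested genes. At an unadjusted p under 0.05 there were 12, 5 of them lower, against 16.5% of all tested genes in both directions. With the block 7 rose and 5 fell, against 5.46% and 3.45%. Batf, an AP-1 family factor, was the one that rose without it, from 1195, 1194 and 1502 to 1941, 2060 and 2099 (0.65 ± 0.12, SE, limma adjusted p = 0.0354). Nrn1, the gene for neuritin, an anergy-associated surface protein, had 5799, 4619 and 3489 in wild-type arrays and 2558, 2151 and 1060.5 in CTLA-4 KO (−1.33 ± 0.29, SE, limma adjusted p = 0.0548, and 4.46e-05 with the block). Cblb, a ubiquitin ligase that limits activation, had 5093, 3974 and 5216 and then 3511, 2640 and 3020.1 (limma adjusted p = 0.0549, and 0.00141 with the block). Sema7a, Rgs16, Cdkn1a and Bcl6 were higher with the block and Il2 lower. The list median was −0.049. Without CTLA-4 KO replicate 2 or 3 no gene of the list was called in the fit without the block. The called genes of this list lay on both sides of 0 with the block.

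Of 23 tested genes reported elsewhere to go with NR4A activity, 3 rose and 4 fell without the block, against 1.23% and 0.517% of all tested genes, and 6 rose and 8 fell with it, against 5.46% and 3.45%. Ctla4 itself is 1 of the 4, and without it the median of the list was −0.15, against −0.17 with it. The others that fell were Bcl2l11, the gene for the pro-apoptotic protein BIM, from 8665, 7150 and 11517 to 4095, 4501 and 4824 (−0.999 ± 0.15, SE, limma adjusted p = 0.0155), Nrp1 and Izumo1r. Those that rose were Tox2, from 6303, 7277 and 4844 to 11478, 11009 and 12993 (0.96 ± 0.14, SE, limma adjusted p = 0.0126), Cxcr5 and Batf. The other tested Tox2 probe set had a log2 difference of 0.19. Pdcd1, the gene for PD-1 and a reported NR4A target, had 4748 ± 696 and 6204 ± 129 (SD, n = 3, limma adjusted p = 0.122, and 0.0214 with the block). The called genes of this list too had both signs. Like the lists before it, it was chosen with earlier results of these data known, so an excess over the shares is no separate test. It shares Batf, Bcl6, Tnfrsf9 and Lag3 with the EGR target list, and Myc and Irf4 with the early-response list. The count of 7 was 2 without CTLA-4 KO replicate 2.

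**Figure D4:**
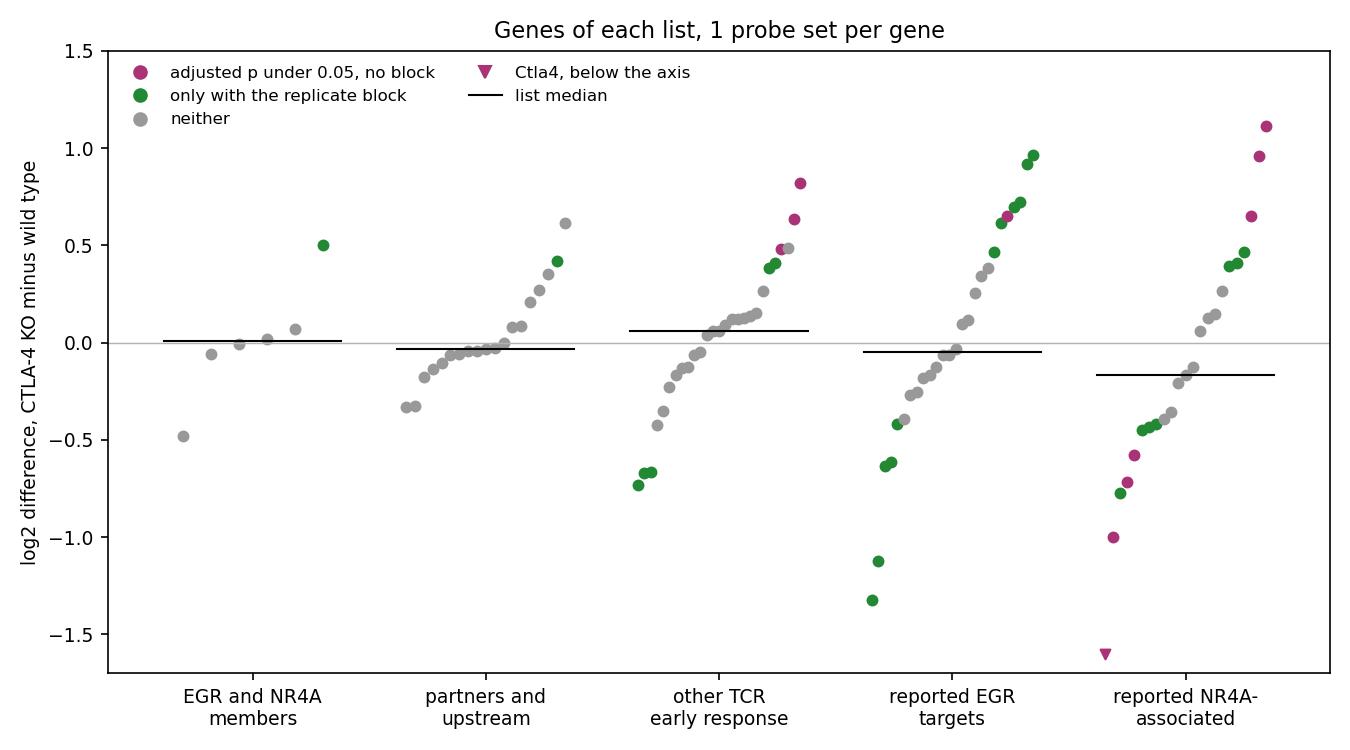
Log2 difference (y axis, CTLA-4 KO minus wild type) of every tested gene in each list (x axis), 1 probe set per gene, sorted within a list; colours mark an adjusted p under 0.05 without the block, with it alone, or neither, and bars are list medians. Among the members Nr4a1 passes with the block alone, and each of the 3 right-hand lists has called genes above and, with the block, below 0.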

How the data were processed

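RNA was extracted with Trizol, and biotinylated cRNA was made from 2 µg, per the labels' protocols. The authors deposited linear intensity values, 1 per probe set and array, which the submitters' processing notes link to Partek and MAS5. The mean of each array, after trimming 2% at each end, was 500.003. No detection calls were used here. All per-sample columns were used, and the number of arrays limits the precision.

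Values became log2(intensity + 16). Of 45101 probe sets, 64 controls were left out, and the 27022 at or above the 40th percentile of mean intensity (37.8) were tested with limma 3.58.1 in R 4.3.3 (eBayes with an intensity trend, Benjamini-Hochberg over all, threshold 0.05, no block). The scale understates changes of dim genes. Gene names came from the array annotation, with 1 gene for 34958 probe sets, several for 932 and none for 9211, and were updated by gene ID to RefSeq symbols of GRCm38.p6 for 34754. A gene was represented by its brightest tested probe set. Deviations of same-numbered arrays correlated at 0.370, 0.234 and 0.250, each over 0.1, so the numbers from the titles were taken to pair the arrays. The fit was tested on simulated data with independent arrays, no pair effects and added changes larger than that of Nr4a1. That test therefore does not bear on the pairing or on changes as small as that of Nr4a1.

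The members and lists were chosen with earlier results of these data known. Named were all members, Nab1, Nab2, Egr4, Ctla4, genes called in either fit (at most 8 per list by p) and the 2 genes most like each member. The B cell markers named singly, Pdcd1, Dusp1, Dusp2, Dusp4, Dusp5 and the repeated Irf4 values were picked after seeing values. Alternatives were the filter, pseudocount, centring, quantile normalization, trend, array weights, block, RNA ratio terms, male arrays alone, threshold, probe set averaging and leaving out each array. The block without each pair was added after seeing the data.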

Additional observations from a re-analysis of the deposited data

How the results depend on the processing

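The number of member probe sets called, 0, was 1 with the replicate block, 0 to 1 when single arrays were left out, 1 with the block without replicate 1 or 2, and 0 under the other alternatives. Nr4a1 kept its direction in all 22, between 0.36 and 0.72, and was called with the block (0.50), with the block without replicate 1 (0.61) or 2 (0.51), and without wild type replicate 1. Without single arrays it lay between 0.36 and 0.66. The direction of the EGR genes and Nr4a3 turned in some settings, none of them called: Egr1 was −0.048 after quantile normalization, −0.035 with the block without replicate 3, and −0.10 to 0.092 without single arrays. Egr2 was 0.079 under median centring, 0.033 with array weights, 0.12 with the block without replicate 3, and −0.13 to 0.16 without single arrays, and it moved farthest, to −0.32, with the Actb term. Egr3 was 0.031 under median centring and 0.17 as the mean of its probe sets. Nr4a3 lay between −0.0096 and 0.15 without single arrays. Nr4a2 stayed negative in all 22.

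For partners and regulators the count of 0 was 1 with the block and 1 with the block without replicate 2. For early-response genes the count of 3 was 8 with the block (5, 8 and 6 in turn without replicates 1, 2 and 3), 5 at the 60th percentile filter, 5 with array weights, 1 with no filter, 0 each with no trend, with the Actb term and in male arrays, and 0 to 1 without single arrays. For EGR targets the count of 1 was 12 with the block (8, 10 and 8 without each pair), 4 at the 60th percentile filter, 4 after quantile normalization, 3 under median centring, 3 with array weights, 2 with a pseudocount of 64, 2 with the Gapdh term, 0 each with no filter, no trend, the Actb term and in male arrays, and 0 to 1 without single arrays. For NR4A-associated genes the count of 7 was 14 with the block (12, 13 and 9 in turn without replicates 1, 2 and 3), 4 in male arrays, 2 with the Actb term, 1 with no trend, and 2 to 6 without single arrays. The cause of these changes was not tested, and the fits that leave arrays out also have fewer arrays. Of all tested genes, 1.74% were called without the block and 8.91% with it, and the shares under the other alternatives are not given. A change of a list's count there cannot be told apart from a change over all genes. Median centring moved the median of all probe sets by 0.089.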
